A study of Mus musculus with 27 samples.

Results

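The Hox genes are 4 chromosomal clusters of homeobox transcription factor genes, and this account covers every symbol of the RNA-seq tables that names a numbered gene of the Hoxa, Hoxb, Hoxc or Hoxd cluster. The rule found 39 genes among 23382 symbols, 11 in Hoxa, 10 in Hoxb, 9 in Hoxc and 9 in Hoxd, and all 39 were placed on GRCm38 (mm10). The cells came from a mouse lymphoma model in which the VavP-Bcl2 transgene drives the anti-apoptotic Bcl2 gene in blood cells. Per the RNA-seq and ChIP-seq labels, haematopoietic stem cells of VavP-Bcl2 fetal liver at embryonic day 13.5 were infected with an empty retroviral vector or with MSCV-SHMT2, which expresses the mitochondrial serine hydroxymethyltransferase SHMT2. They were then transplanted into irradiated wild-type mice, and B220+ cells, the B cells, were taken from the spleen, so the Bcl2 transgene was shared by both groups and host cells may remain. The labels of the bisulfite libraries name B220+ cells, the model and the vector only. Of the 3 SHMT2 bisulfite libraries, replicates 2 and 3 carry transfection labels (SHMT3 and SHMT4) that differ from their titles. The titles were followed. RNA-seq had 3 vector and 3 SHMT2 libraries, H3K4me1 ChIP-seq 2 and 2, H3K4me3 ChIP-seq 2 and 3, and ERRBS, a bisulfite method enriched for CpG-rich DNA that gives the methylation of single cytosines, 3 and 3. The labels give no age of the recipients and do not tell whether the libraries of a group are from different mice. The p-values therefore reflect spread among libraries, which may be technical.

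Hox proteins assign position along the body axis in the embryo, and in blood formation several of them, with their TALE cofactors of the Pbx and Meis families, are active in stem and progenitor cells and are switched off as cells mature. Their clusters are kept silent by polycomb complexes and are opened by the MLL1 (Kmt2a) complexes, which methylate lysine 4 of histone H3. H3K4me3 marks active or poised promoters, H3K4me1 marks enhancers and the edges of promoters, and cytosine methylation of a CpG-rich promoter usually goes with silencing.

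In these B220+ cells transcripts of the cluster genes came mainly from Hoxa. Hoxa3, Hoxa5, Hoxa7 and Hoxa2 were the members with a mean of at least 1 TPM (a transcript level scaled by gene length and by library). Of the 39 genes, 13 were listed at 0 in all 6 libraries, 6 of them in Hoxd, 4 in Hoxc, 2 in Hoxb and 1 in Hoxa. The most methylated stretches of Hoxa lay between the Hoxa2 and Hoxa5 starts, and the upstream ends of the rear genes Hoxa10, Hoxa11 and Hoxa13 had a mean under 5% while their transcripts stayed at or below 0.0574 TPM. No member was called for SHMT2 against vector in expression or in methylation at an adjusted p under 0.05, and the background over all genes, ends and tiles was 0% in the same tests. Leaving out vector replicate 1 raised the calls over all genes in expression from 0 to 845, none of them a Hox gene.

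The sequences on which the methylation results turn are 5 stretches of 250 bases just upstream of an annotated start (RefSeq, GRCm38.p6), printed 5′ to 3′ on the gene's strand, with capitals for each CG whose cytosine was read in all 6 ERRBS libraries. Hoxa5 (chr6:52204588-52204837, minus strand) is shown because the cytosines read there were almost fully methylated while Hoxa5 was listed at 2.58 to 7.44 TPM. Hoxa6 (chr6:52208673-52208922, minus strand) is shown because its neighbouring upstream stretch was mostly unmethylated where read. Hoxa13 (chr6:52260881-52261130, minus strand) stands for the unmethylated rear of Hoxa. The second annotated start of Hoxd11 (chr2:74682073-74682322, plus strand) and Hoxd1 (chr2:74762730-74762979, plus strand) are shown because a single library, SHMT2 replicate 2, was far above the other 5 there.
Hoxa5: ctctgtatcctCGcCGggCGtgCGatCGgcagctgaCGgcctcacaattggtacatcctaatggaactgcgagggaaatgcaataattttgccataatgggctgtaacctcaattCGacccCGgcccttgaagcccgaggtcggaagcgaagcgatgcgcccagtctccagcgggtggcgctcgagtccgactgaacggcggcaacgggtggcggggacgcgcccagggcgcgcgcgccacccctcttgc
Hoxa6: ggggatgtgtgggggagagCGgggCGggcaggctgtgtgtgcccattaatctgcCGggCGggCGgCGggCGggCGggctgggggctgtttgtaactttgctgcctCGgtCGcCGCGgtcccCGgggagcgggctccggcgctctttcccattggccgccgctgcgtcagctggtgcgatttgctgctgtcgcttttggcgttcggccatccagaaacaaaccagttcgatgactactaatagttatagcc
Hoxa13: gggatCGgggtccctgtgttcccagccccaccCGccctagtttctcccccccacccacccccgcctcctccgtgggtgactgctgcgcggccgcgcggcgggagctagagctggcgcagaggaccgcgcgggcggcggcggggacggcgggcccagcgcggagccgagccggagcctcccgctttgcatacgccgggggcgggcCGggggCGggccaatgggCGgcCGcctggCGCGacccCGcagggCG
Hoxd11, second start: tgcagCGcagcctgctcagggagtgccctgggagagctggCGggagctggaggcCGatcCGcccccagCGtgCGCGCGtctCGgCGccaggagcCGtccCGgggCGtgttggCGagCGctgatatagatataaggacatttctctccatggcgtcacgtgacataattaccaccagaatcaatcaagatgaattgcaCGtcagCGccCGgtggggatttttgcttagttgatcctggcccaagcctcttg
Hoxd1: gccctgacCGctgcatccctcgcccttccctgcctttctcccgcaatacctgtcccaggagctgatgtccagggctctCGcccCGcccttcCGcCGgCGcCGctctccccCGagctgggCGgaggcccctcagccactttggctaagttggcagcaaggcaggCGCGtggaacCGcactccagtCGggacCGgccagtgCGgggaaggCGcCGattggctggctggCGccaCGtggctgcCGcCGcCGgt

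The motif searched was CG, which reads the same on both strands. It occurs 28 times in the Hoxa5 stretch, 24 times in that of Hoxa6, 35 in that of Hoxa13, 20 in that of Hoxd11 and 24 in that of Hoxd1. In the same order 8, 13, 10, 18 and 22 of these CG were read in all 6 libraries. The parts of the Hoxa5 and Hoxa6 stretches nearest the start held none of those read. The RefSeq table held 24 such stretches for 22 of the 39 genes, with a median of 12.5 CG, against a median of 6 over 32851 stretches of the same length, of which 92.1% hold at least 1. Over the printed Hoxa5 stretch the mean methylation of 9 cytosines was 89.3%, 94.5% and 88.8% in vector replicates 1 to 3 and 94.9%, 95.2% and 96.2% in SHMT2 replicates 1 to 3. Over that of Hoxa6, 17 cytosines averaged 14.1%, 4.04% and 8.38% in vector and 6.27%, 12.5% and 4.13% in SHMT2, while the wider window of 1 kb on either side of that start, with 45 cytosines, was at 31.3% to 44.2%. The 2 stretches lie in 1 cluster and are of like CG content. Between their parts that were read, all 6 libraries went from a nearly fully methylated to a mostly unmethylated state. Over that of Hoxa13, 15 cytosines were between 0.0833% and 0.600% in all 6 libraries.

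Hoxa3, a patterning factor of the pharyngeal arches, had the highest level among the members. It stood at 11.6, 2.96 and 7.38 TPM in vector replicates 1 to 3 and at 5.59, 9.01 and 9.77 TPM in SHMT2 replicates 1 to 3. The vector libraries spanned the whole SHMT2 range, and the group means of 7.31 ± 4.32 and 8.13 ± 2.23 TPM (SD, n = 3 each) differed by less than their spread. The log2 fold change on the log2(TPM + 1) scale was 0.25 with an SE of 0.44 (limma adjusted p = 0.788 over 11117 genes, two-sided exact permutation p = 0.7). The annotated Hoxa3 span (chr6:52169059-52213067) contains Hoxa4, Hoxa5 and Hoxa6, and the way reads were assigned to strand and transcript was not given in the sources used here, so the levels of these genes cannot be told apart with certainty.

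Hoxa5, known for its part in lung and vertebral patterning, was listed at 7.44, 2.58 and 4.67 TPM in the vector group and 4.93, 5.80 and 5.77 TPM in SHMT2. Hoxa7 was at 4.84, 1.26 and 5.39 TPM in the vector group and 3.07, 4.96 and 3.95 TPM in SHMT2. For both genes the groups overlapped, and vector replicate 2 was the lowest of the 6 libraries, as it was for Hoxa3. Hoxa5 had a log2 fold change of 0.22 with an SE of 0.31 (limma adjusted p = 0.730, exact permutation p = 0.7) and Hoxa7 one of 0.17 with an SE of 0.42 (limma adjusted p = 0.857, exact permutation p = 0.9). Without vector replicate 2 all 3 values turned negative, to -0.20 for Hoxa3, -0.09 for Hoxa5 and -0.31 for Hoxa7 (limma adjusted p = 0.736, 0.836 and 0.462).

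Hoxa2, a regulator of hindbrain and second-arch identity, was at 3.07, 2.83 and 5.91 TPM in the vector group and 2.17, 2.46 and 2.16 TPM in SHMT2. Each SHMT2 library was below each vector library, and vector replicate 3 stood above all others. The log2 fold change was -0.54 with an SE of 0.25 (limma p = 0.0695, adjusted p = 0.335, exact permutation p = 0.1, the smallest that 3 against 3 libraries allow). Leaving out vector replicate 3 brought it to -0.28 (limma adjusted p = 0.444). Among the 11117 genes tested, 8.26% had all SHMT2 libraries below all vector libraries and 25.1% had groups that did not overlap in either direction, so 1 of 4 tested members is near the background share.

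**Figure D1:**
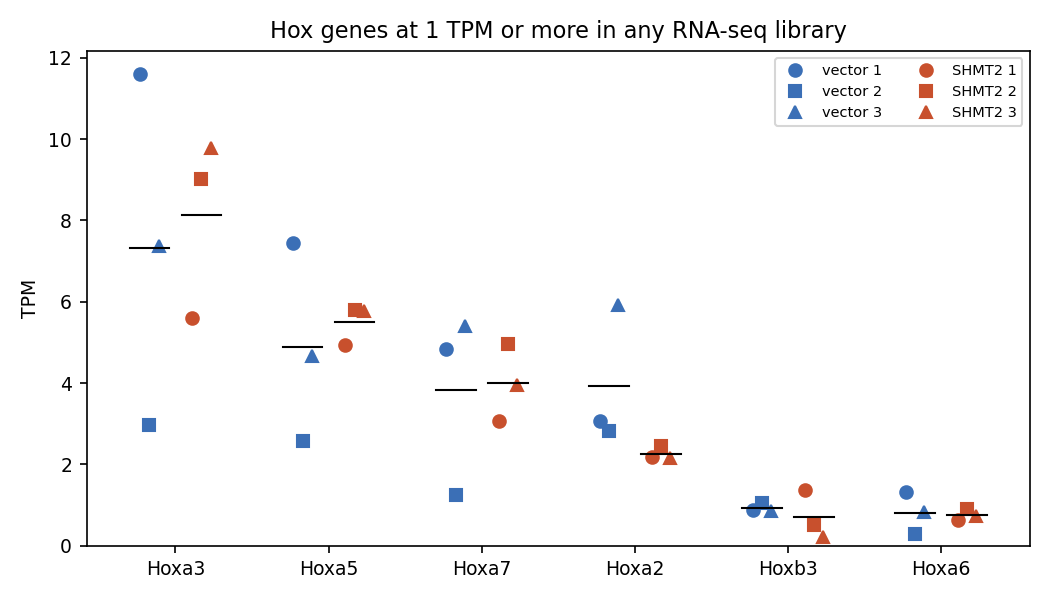
TPM of the 6 Hox genes that reached 1 TPM in any RNA-seq library, with 1 point per library and a black line at each group's mean (n = 3). Vector replicate 2 is lowest for Hoxa3, Hoxa5 and Hoxa7, and only for Hoxa2 do the groups not overlap.

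Outside these 4 genes, Hoxb3 reached 1 TPM in vector replicate 2 (1.05 TPM) and SHMT2 replicate 1 (1.37 TPM), with 0.205 to 1.37 TPM over the SHMT2 libraries, and Hoxa6 reached 1.32 TPM in vector replicate 1 with 0.278 TPM in vector replicate 2. Hoxb4, a factor that expands blood stem cells when overexpressed, was between 0.425 and 0.599 TPM in all 6 libraries. Hoxa9 and Hoxa10, which mark blood stem cells and many myeloid leukaemias, stayed at or below 0.231 and 0.0574 TPM. Hoxc genes reached at most 0.179 TPM and Hoxd genes at most 0.509 TPM, the latter for Hoxd4 in vector replicate 3. TPM keep no depth, so a listed 0 says only that no value was assigned.

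Library makeup differed among the libraries of the vector group. The summed TPM of 9 erythroid marker genes was 59.6, 4035 and 788 in vector replicates 1 to 3 and 52.3 to 142 in SHMT2, that of 10 myeloid markers 154, 870 and 698 in vector and 219 to 343 in SHMT2, and that of 8 B-cell markers 8914, 6544 and 6444 in vector and 8322 to 8541 in SHMT2. The erythroid sum includes Gata1 at 1006 TPM in vector replicate 2. Markers of the other cell types summed to 8.11, 28.2 and 23.4 TPM in the vector group and 6.34 to 14.2 in SHMT2 for megakaryocytes, 23.6, 45.3 and 64.8 against 21.8 to 41.3 for natural killer cells, 13.8, 23.5 and 19.5 against 15.2 to 36.7 for T cells, and 101, 174 and 140 against 132 to 143 for stroma. Most of the stroma sum was Pecam1, at 99.0 to 169 TPM over the 6 libraries. Blood stem and progenitor markers summed to 26.0, 27.7 and 41.6 TPM in the vector group and 24.1 to 29.6 in SHMT2. Most of that sum was Flt3, with Mecom at or below 0.0421 TPM. The part of these cells in the Hox values was not tested, and in bulk RNA fewer cells and less RNA per cell cannot be told apart. Shmt2 itself was at 157 to 223 TPM in the vector group and 244 to 345 TPM in SHMT2. It was not called either (log2 fold change 0.61, SE 0.19, limma adjusted p = 0.216).

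Levels of the partners and regulators of Hox proteins were spread widely, with Meis1 at a mean of 0.497 TPM and Cdx1 and Cdx4 listed at 0. Of 11 TALE cofactor genes, 9 were tested and 0 were called, with a median log2 fold change of -0.00 against 0.02 over all genes, and 2 of the 9 had all SHMT2 libraries below all vector libraries, against 8.26% of all genes tested. Meis3, of the Meis family, was at 17.3 to 30.0 TPM and Pbx2 at 15.5 to 23.4 TPM over the 6 libraries. Tgif1 was at 16.1, 18.3 and 18.3 TPM in the vector group and 12.9, 10.9 and 12.9 in SHMT2 (log2 fold change -0.49, SE 0.11, limma adjusted p = 0.204).

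Among 17 activators of Hox clusters, 14 were tested and 0 called (median log2 fold change -0.08). Npm1, whose mutant forms go with high Hox expression in myeloid leukaemia, was at 220, 212 and 221 TPM in the vector group and 358, 267 and 309 TPM in SHMT2 (log2 fold change 0.51, SE 0.12, limma adjusted p = 0.204). Mll1, the H3K4 methyltransferase that maintains Hox transcription, was at 328 to 427 TPM in the vector group and 311 to 430 TPM in SHMT2, and Aff4, of the elongation complex, at 398 to 581 and 432 to 503 TPM. The table lists Kdm6a, an H3K27 demethylase, at 5162 to 21951 TPM, an extreme level whose origin was not tested. Among 20 polycomb genes 18 were tested and 0 called (median 0.08). Mtf2 was at 155 to 343 TPM in the vector group and 289 to 374 in SHMT2, Rbbp4 at 119 to 129 and 129 to 149 TPM, and Cbx7 at 61.2 to 105 and 57.7 to 67.9 TPM. Phc3, a polyhomeotic subunit of the first repressive complex, was at 101, 97.4 and 105 TPM in the vector group and 77.2, 77.3 and 73.5 TPM in SHMT2 (log2 fold change -0.41, SE 0.07, limma adjusted p = 0.204). Over all genes tested 16.7% had an unadjusted limma p under 0.05, against 2 of 9 cofactors, 2 of 14 activators, 4 of 18 polycomb genes and 0 of the 4 tested Hox members.

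Of 13 noncoding and neighbouring genes of the clusters 7 were in the tables, 4 of them at 0 throughout, among them Hotair and Evx2. Mira, a noncoding RNA of the Hoxa region, was at 0.854 to 1.87 TPM and was the one tested (log2 fold change -0.01, SE 0.22, limma adjusted p = 0.979). Of 82 other developmental genes of the homeobox and Pax families, called other homeobox genes here, 38 were at 0 in all libraries. The 1 that passed the filter was Isl1. It was at 16.1, 1.83 and 3.48 TPM in the vector group and 3.18 to 5.30 TPM in SHMT2 (log2 fold change -0.26, limma adjusted p = 0.859).

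Methylation was read at 1151 cytosines of Hoxa (chr6:52155367-52260880), 918 of Hoxb (chr11:96194316-96368254), 719 of Hoxc (chr15:102921131-103036856) and 1139 of Hoxd (chr2:74668225-74765142) in all 6 ERRBS libraries, with at least 10 reads each and a mean coverage of 68.5 to 83.0 reads. Among the Hox clusters, Hoxa held the sharpest contrast, with 58.4% of its cytosines below 10% and 18.2% at 80% or above. In Hoxc no cytosine had a mean of 80% or more, and in Hoxd 0.790% did. Across all 1211987 autosomal cytosines 24.7% did, and 55.9% were below 10%, so the contrast in Hoxa was not sharper than over the autosomes.

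Along Hoxa the methylated stretch lay at the Hoxa2 to Hoxa5 side. In steps of 10 kb from the group 1 side, the mean over the 6 libraries was 27.3%, 92.6%, 75.6%, 29.6%, 92.2% and 25.6%, and from 60 kb on it was between 3.08% and 7.32% to the end of the cluster. The step at 29.6% holds the upstream end of Hoxa4. The change from the methylated to the unmethylated state fell between Hoxa5 and Hoxa7. The 1 kb tile over the Hoxa5 start was at 87.0%, 93.7% and 88.8% in vector and 96.0%, 94.9% and 94.1% in SHMT2, whereas the tile at chr6:52211001-52212000, inside the Hoxa3 span, was between 0.147% and 0.428% in all 6 libraries. In Hoxb the 2 steps between the starts of Hoxb2 and Hoxb4 were at 69.6% and 83.8%, and those over Hoxb6 to Hoxb8 at 4.17% and 4.73%. In Hoxd the highest step, over the Hoxd4 start, was at 59.0% with 9 cytosines.

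**Figure D2:**
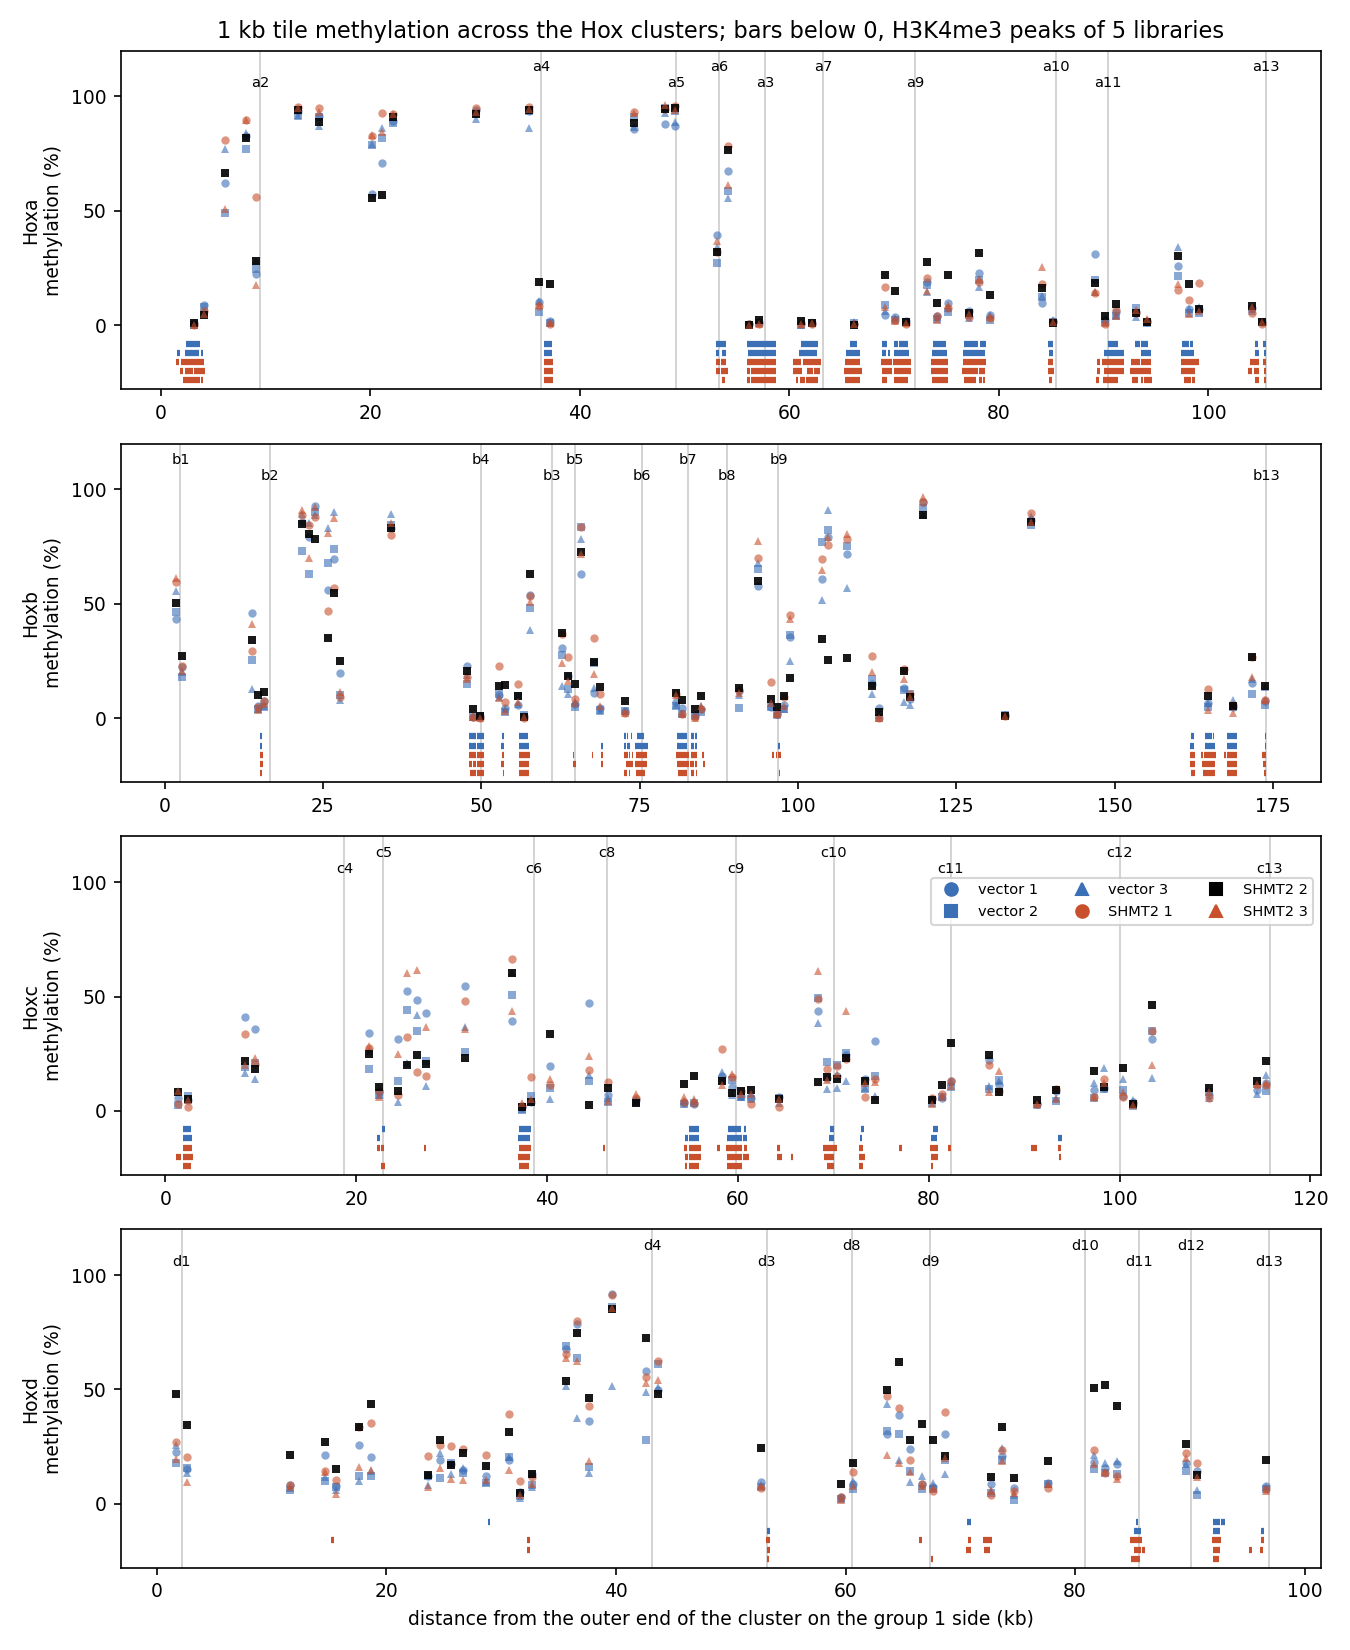
Methylation of 1 kb tiles (vertical axis, percent) in the 6 ERRBS libraries along each cluster (horizontal axis, kb from the group 1 side), with SHMT2 replicate 2 in black, grey lines at the upstream ends of the genes labelled above, and bars below 0 for H3K4me3 peaks of the 2 vector (blue) and 3 SHMT2 (red) libraries. Most tiles of Hoxa between the Hoxa2 and Hoxa5 starts are high, except around Hoxa4, and tiles from Hoxa7 on are low, and the black squares stand above the other libraries in Hoxd.

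Cluster means of Hoxa and Hoxb were slightly higher in SHMT2. Hoxa averaged 25.4%, 25.2% and 25.8% in vector and 27.9%, 29.2% and 26.1% in SHMT2, a difference of 2.33 points with means of 25.4 ± 0.309% and 27.8 ± 1.56% (SD, n = 3). Hoxb averaged 23.9%, 22.0% and 22.8% in vector and 26.3%, 24.6% and 24.8% in SHMT2, also 2.33 points apart. In both clusters the groups did not overlap, which held for 5.16% of 4285 autosomal 100 kb bins with at least 100 cytosines in the same direction and for 7.14% in either. Over all autosomal cytosines the means were 31.5 ± 0.431% and 31.9 ± 0.142%, with overlapping groups. Within 100 kb outside the clusters the differences were 2.44 points beside Hoxa and 0.44 points beside Hoxb, with overlapping groups, and beside Hoxc the level was lower in SHMT2 (-2.41 points), without overlap. Hoxc averaged 14.4%, 10.9% and 11.1% in vector and 12.9%, 15.7% and 13.3% in SHMT2, with overlapping groups.

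Hoxd behaved as 1 library against 5. Its mean stood at 15.2%, 11.7% and 14.1% in the vector libraries and at 17.7%, 31.1% and 12.2% in the SHMT2 libraries. SHMT2 replicate 2 was far above the next library, and SHMT2 replicate 3 lay within the vector range. These are the libraries whose transfection labels differ from their titles. The difference of 6.65 points between group means became 1.27 points without SHMT2 replicate 2. At 195 of 1139 Hoxd cytosines (17.1%) SHMT2 replicate 2 was at least 25 points above each of the other 5 libraries, against 0 to 9 cytosines for any other library. The same count was 14 in Hoxa (1.22%), 9 in Hoxb (0.980%) and 17 in Hoxc (2.36%). It was 7.36% of 6019 cytosines at the ends of the other developmental homeobox genes and 2.33% of all autosomal cytosines, so this library stood apart well beyond the Hox clusters. Among the bins of 100 kb, 5.48% had SHMT2 replicate 2 at least 10 points above the other 5 libraries. Neighbouring cytosines share reads, so these counts are not independent.

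**Figure D3:**
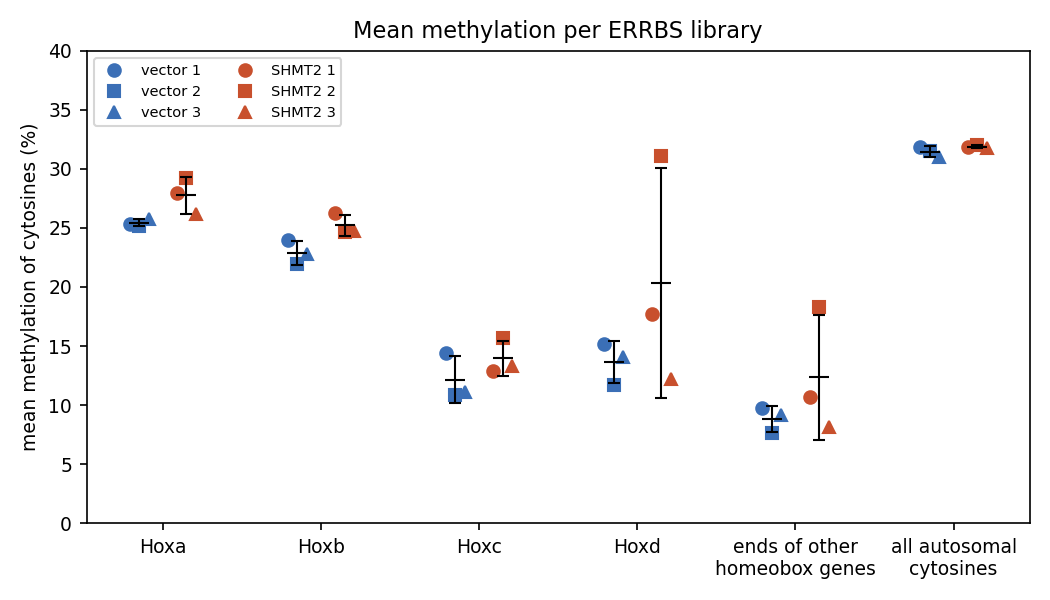
Mean methylation in percent (vertical axis) of all cytosines of each Hox cluster, of the ends of 82 other homeobox genes and of all autosomal cytosines, 1 point per ERRBS library, with mean and SD (n = 3). SHMT2 replicate 2 is at 31.1% in Hoxd, where the other 5 libraries lie between 11.7% and 17.7%.

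The printed stretches of Hoxd11 and Hoxd1 were chosen for the height of SHMT2 replicate 2, so their values only describe it. The second start of Hoxd11 had 11.9%, 9.51% and 13.4% in the vector libraries and 10.5%, 40.9% and 9.09% in the SHMT2 libraries over 20 cytosines. The Hoxd1 stretch, over 30 cytosines, was at 15.5%, 16.1% and 14.0% in vector and 20.2%, 42.7% and 10.5% in SHMT2. At Hoxd1 the other SHMT2 libraries lay above and below the vector range. In 2 other Hoxd stretches of this length SHMT2 replicate 2 was not the highest library: SHMT2 replicate 1 was highest at Hoxd12, with 17.1% against 4.49% in replicate 2 over 6 cytosines, and at Hoxd4, with 42.4% against 28.8% over 2 cytosines. Of 39 Hoxd tiles tested, SHMT2 replicate 2 was at least 10 points above the other 5 in 12 (30.8%), against 4.88% of all 64099 tiles tested, 4 of 39 in Hoxc, 1 of 30 in Hoxa and 0 of 42 in Hoxb. These 12 tiles included those over Hoxd13, Hoxd11, Hoxd9, Hoxd3 and Hoxd1. The largest gap was at chr2:74682001-74683000 within Hoxd11, at 15.6%, 13.3% and 18.0% in vector and 13.6%, 51.8% and 13.8% in SHMT2 over 100 cytosines. In the Hoxb gap between Hoxb13 and Hoxb9 the same library was low instead, at 25.4% in the tile chr11:96263001-96264000 where the others were at 75.5% to 90.8%.

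Gene ends were tested as windows of 1 kb on either side of each end, with the upstream end taken from the strand of the cluster. Of the 78 Hox ends 50 held at least 3 cytosines, and 40 of these, with a mean level of 5 to 95%, were tested. The quasi-binomial model called 0 of 40 (lowest adjusted p = 0.807), and 0% of all 5984 ends tested. At an unadjusted p under 0.05 it had 4 of 40, against 2.77% of all ends. When 1 library was left out it had 1 to 5 of 40, and 68 to 666 of all 5984 ends. Both the 5 and the 666 came without SHMT2 replicate 3. In 5 of 40 the groups did not overlap, all higher in SHMT2, against 7.69% of all ends without overlap, 5.01% higher and 2.67% lower. The median difference was 3.40 points over the 40 Hox ends, 3.23 points over 95 ends of other homeobox genes and 1.15 points over all ends tested.

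The end with the smallest p was the upstream end of Hoxd12 (chr2:74675013), a limb patterning gene, at 17.6%, 13.3% and 16.6% in vector and 22.0%, 25.1% and 19.6% in SHMT2 over 58 cytosines (difference 6.42 points, unadjusted p = 0.0122). Every SHMT2 library was above every vector library there. The upstream end of Hoxa5 (92 cytosines) had 87.2%, 93.8% and 89.5% in vector and 95.8%, 94.8% and 94.5% in SHMT2 (quasi-binomial unadjusted p = 0.0385). It shares nearly all its cytosines with the downstream end of Hoxa6. Both ends are among those counted above without overlap and at an unadjusted p under 0.05, so that locus is counted more than once. The downstream ends of Hoxa3 (2.30 points) and Hoxb13 (9.40 points, 4 cytosines) were the remaining ones without overlap, and in a window of 2 kb on either side the Hoxb13 difference was 0.79 points.

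The largest difference was at the downstream end of Hoxd4, at 76.7%, 64.2% and 39.7% in vector and 78.0%, 70.8% and 62.8% in SHMT2 over 11 cytosines, with overlapping groups (10.3 points). Without vector replicate 3 that difference was 0.11 points. The upstream end of Hoxa2 was at 24.0%, 26.2% and 30.0% in vector and 57.3%, 29.3% and 18.9% in SHMT2, where SHMT2 replicate 1 alone stood apart, and without it the difference of 8.47 points turned to -2.60 points. The ends of Hoxd9 (7.21 points upstream, 6.28 points downstream), Hoxd10 (7.49 points upstream) and Hoxd1 (8.56 points upstream) had SHMT2 replicate 2 as their highest library, and without it their differences were -0.92, -0.35, -0.22 and 0.67 points. The downstream ends of Hoxa2 (6.62 points, 3 cytosines) and Hoxb2 (5.32 points) had overlapping groups. Leaving out vector replicate 3 brought Hoxb2 to 1.97 points and leaving out vector replicate 1 to 8.78, and leaving out SHMT2 replicate 1 brought Hoxa2 to 4.02 points and leaving out SHMT2 replicate 2 to 10.3. SHMT2 replicate 2 was at least 10 points above the other 5 libraries at 6 of 11 tested Hoxd ends, 1 of 10 in Hoxc and 0 of 11 and 0 of 8 in Hoxa and Hoxb, against 16% of all ends tested and 22.1% of the ends of other homeobox genes.

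Of 182 cluster tiles with at least 3 cytosines 150 were tested and 0 were called (lowest adjusted p = 0.882), with 0% of all tiles called. At an unadjusted p under 0.05 there were 13, against 3.46% of all tiles; leaving out SHMT2 replicate 3 gave 37 (8202 of all 64099 tiles) and leaving out SHMT2 replicate 1 gave 8 (1616 of all). Of the 150, 12 had groups that did not overlap (8% against 8.63% of all tiles), 11 of them higher in SHMT2, where 3.58% of all tiles were higher and 5.05% lower. The smallest p was in Hoxb7 (chr11:96287001-96288000), at 6.85%, 5.19% and 5.63% in vector and 10.7%, 10.9% and 10.0% in SHMT2. Next were the tiles over Hoxd12 (chr2:74675001-74676000, 6.33 points), between Hoxb13 and Hoxb9 (chr11:96251001-96252000, 8.86 points), in Hoxb6 (chr11:96299001-96300000, 6.06 points) and in Hoxa9 (chr6:52224001-52225000, 8.98 points).

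H3K4me3 peaks covered Hoxa far more than Hoxd. In the 2 vector libraries 15.8% and 18.6% of the Hoxa span lay under a peak, and in the 3 SHMT2 libraries 23.5%, 22.7% and 18.3%. Hoxb had 6.79% to 10.6%, Hoxc 5.26% to 10.3% and Hoxd 1.67% to 4.32%. A peak stood within 1 kb of the upstream end of 9 of 11 Hoxa genes in all 5 libraries, the exceptions being Hoxa2 and Hoxa5 with none in any. This held for 4 of 10 Hoxb genes, 3 of 9 Hoxc genes and 1 of 9 Hoxd genes, Hoxd11. Counting either end, 21 of 39 members had a peak in all 5 libraries, 53.8% of them, and 54.1% of 20665 autosomal protein-coding genes did.

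The peak with the highest fold enrichment in Hoxa (the authors' value for each peak) lay just upstream of Hoxa4 in vector replicate 4 (chr6:52191940-52192737, 36.4-fold) and in vector replicate 6 (40.8-fold), above 90.8% and 88.0% of the peaks of those lists. Hoxa4 itself was listed at 0.153 to 0.442 TPM. A peak over the upstream end of Hoxa3 filled the whole window in all 5 libraries, with 31.1-fold and 37.5-fold enrichment in vector replicates 4 and 6 and 48.0-fold, 33.9-fold and 19.3-fold in SHMT2 replicates 4, 5 and 6. Hoxa7 had 22.3-fold and 13.1-fold in vector and 19.9-fold to 29.1-fold in SHMT2. In Hoxd the top peak of each list reached 8.41-fold to 12.5-fold. Rear Hoxa genes listed near 0 TPM carried the mark as well, with a mean of 1466 bases under a peak at the upstream end of Hoxa11 and 1154 at that of Hoxa13.

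Between groups the number of Hox genes with an H3K4me3 peak at either end came to 23 and 25 in the vector libraries and to 29, 25 and 26 in the SHMT2 libraries, while 55.2% to 57.5% of all genes had one, depending on the library. Bases of the 4 clusters under a peak were 36165 and 43340 in vector and 59367, 53361 and 40634 in SHMT2. SHMT2 replicate 6 lay within the vector range. The whole lists covered 24916548 and 27459402 bases in vector and 27437230 to 34047361 in SHMT2, and per 10 kb under any peak the clusters held bases numbering 14.5 and 15.8 in vector and 17.4, 17.1 and 14.8 in SHMT2, so the groups overlapped. Depth of the ChIP libraries is unknown.

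H3K4me1 peaks were more numerous in both SHMT2 libraries, at Hox genes and over the whole lists. A peak stood at either end of 25 and 21 Hox genes in vector and of 33 and 32 in SHMT2 (64.1% and 53.8% against 84.6% and 82.1%), and of 50.9% and 46.6% against 60.5% and 60.7% of all genes. For the 82 other homeobox genes the shares were 56.1% and 52.4% against 72.0% and 73.2%. In all 4 libraries 19 of 39 members had a peak at either end, and 43.6% of all genes did. The covered part of Hoxd was 4405 and 3950 bases in vector and 20549 and 17278 bases in SHMT2, that of Hoxa 27753 and 22285 against 36173 and 37900 bases. The lists covered 62569930 and 77449869 bases in vector and 114078691 and 117899453 in SHMT2. Per 10 kb under any peak the 4 clusters held bases numbering 8.69 and 8.46 in vector and 10.8 and 10.1 in SHMT2, without overlap. How many reads and what quality stood behind each list is not given, and its part in the difference was not tested; with 2 against 2 libraries no test was made.

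**Figure D4:**
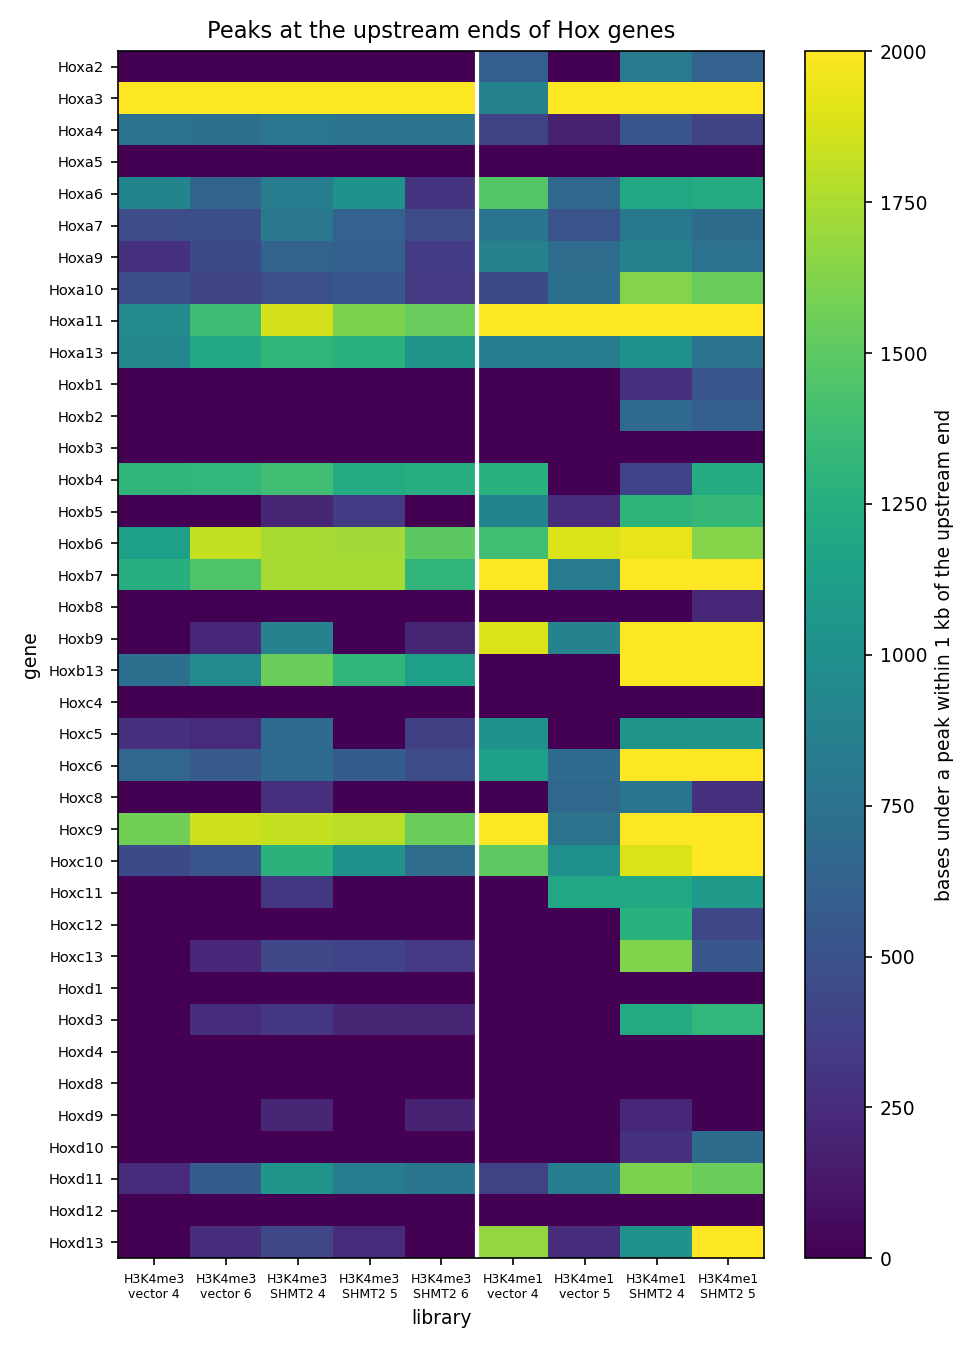
Bases under a peak within 1 kb of the upstream end of the Hox genes shown (rows) in the 5 H3K4me3 and 4 H3K4me1 libraries (columns), on a colour scale from 0 to the full window. The Hoxa rows shown have an H3K4me3 peak in all 5 libraries except Hoxa2 and Hoxa5, and only Hoxa3 fills the window in that mark. Hoxa5 is empty in H3K4me1 as well. Hoxd rows are mostly empty in the vector libraries.

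The 3 readouts can be laid side by side for the 32 members whose upstream end held at least 3 cytosines. Of 15 members with a mean level under 10%, 9 had an H3K4me3 peak there in all 5 libraries and 1, Hoxa3, had a mean of at least 1 TPM. Of 15 members between 10 and 50%, 4 had such a peak and 1, Hoxa2, reached that level. Hoxa5 and Hoxd4, at 50% or above, had no peak in any library, and Hoxa5 reached it. Hoxa7 had no cytosine read at its upstream end, and Hoxa3 had 3. Across the 32 genes Spearman's rho was -0.58 between methylation and H3K4me3 bases and -0.13 between methylation and mean TPM, and across all 39 it was 0.28 between H3K4me3 bases and mean TPM. Neighbouring genes of a cluster are not independent points.

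**Figure D5:**
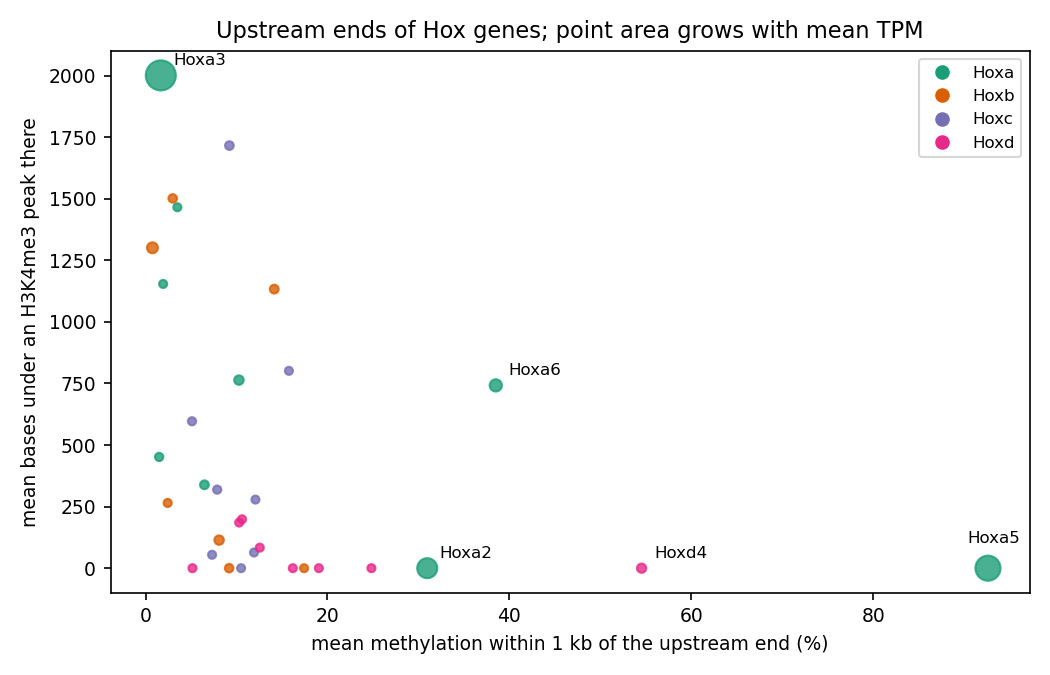
Mean methylation in percent (horizontal axis) and mean bases under an H3K4me3 peak (vertical axis) at the upstream ends of 32 Hox genes, coloured by cluster, with point area growing with mean TPM. Hoxa3, with 3 cytosines read, lies at the top left, and Hoxa5, at 92.6%, lies at the bottom right.

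Methylation was also compared under and outside H3K4me3 peaks. In Hoxa, 361 cytosines under an H3K4me3 peak in all 5 libraries averaged 5.23%, and 578 under none averaged 46.7%. In Hoxb the values were 5.64% and 33.2%, and in Hoxc 7.76% and 16.2%. Over all autosomal cytosines under a peak in all 5 libraries the mean was 1.61%. No cytosine of Hoxd lay under a peak of all 5 libraries, and 1052 under none averaged 17.6%, below the 49.0% of such cytosines over the autosomes. SHMT2 replicate 2 was the highest library under these peaks in Hoxa (9.57%, others 3.75% to 5.08%), in Hoxb (9.34%, others 3.51% to 6.41%) and in Hoxc (others 5.54% to 8.93%). It was also the highest under such peaks over all autosomes (1.81%, others 1.51% to 1.71%).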

How the data were processed

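RNA-seq, H3K4me3 and H3K4me1 ChIP-seq and ERRBS of B220+ cells were compared between vector and SHMT2. The authors deposited TPM per gene symbol (STAR and mm10 per the submitters' processing notes; the quantifier was not given in the sources used here). They deposited MACS2 peaks called per library, with a fold enrichment ratio, −log10 p and q-values and a score per peak, and ERRBS tables with read counts (coverage) and the percent of methylated reads per cytosine (Bismark and Bowtie2 per the submitters' processing notes). Whether inputs served as control is not given; input libraries were not analysed here. Peak fold values were used only to describe peaks within a list.

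log2(TPM + 1) of genes averaging 1 TPM or more was fitted with limma 3.58.1 (R 4.3.3, trend), adjusted by Benjamini-Hochberg over 11117 genes. Methylated and unmethylated calls were rebuilt from coverage and percent at 1211987 autosomal cytosines read 10 or more times in each of the 6 libraries, and summed in windows. A quasi-binomial model with dispersions moderated by limma gave p-values. Calls required 10 points of difference beside an adjusted p under 0.05. Each ERRBS library had 1330340 to 1424115 cytosines, with 63.0 to 71.6 reads per cytosine on average. Peaks counted at an end from 1 bp of overlap. Both models were tested on simulated data. Of 200 changes of 1 log2 unit among 11117 genes limma recovered 71%, with 14 false calls. The window model recovered 64.5% of 200 changes of 20 points among 5984 ends, with 0 false calls. In the same simulation on 64099 tiles it recovered 38.5%, with 1 false call. The simulated calls had the same spread in all windows and no library standing apart as SHMT2 replicate 2 did. The simulated expression values were drawn independently for each library, without the differences in makeup seen among the vector libraries. Recovery of changes by both models in the real data may therefore be lower.

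Named members, ends and tiles followed a rule: members at 1 TPM or more, the 10 tested ends with the largest difference, the 5 tiles with the smallest p, and up to 4 genes of each other list. Ends with groups that did not overlap were named after their values were seen. Members and lists were chosen with earlier results of these data known. The lists were TALE cofactors, activators, polycomb genes, noncoding and neighbouring genes, other homeobox genes (with Pax genes) and markers of other cell types. Alternatives varied the pseudocount, filters, scaling, window, coverage, peak threshold, test, replicate block and the library left out. Results of a few single genes, 1 Hox gene among them, are not reported here; they remain in the counts and sums.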

Additional observations from a re-analysis of the deposited data

How the results depend on the processing

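The counts of called Hox genes, ends and tiles were 0 under each alternative of the limma and quasi-binomial fits, including a replicate block, which called 0 genes, 0 ends and 0 tiles. The samples share only replicate numbers: deviations from the group means of same-numbered libraries correlated at -0.42, -0.33 and -0.06 in RNA-seq and -0.08, -0.30 and -0.06 in ERRBS. The block moved the unadjusted count over all genes from 1858 to 1180. Fisher's exact test on calls pooled over replicates ignores the spread between libraries. It called 1 of 40 Hox ends (Hoxd4 downstream), against 678 of all 5984, and 13 of 150 Hox tiles, against 5821 of all 64099. The cluster differences stayed above 0 under each alternative; without 1 library they ranged from 1.59 to 3.14 points for Hoxa, 1.81 to 2.85 for Hoxb, 0.97 to 2.97 for Hoxc and 1.27 to 10.7 for Hoxd, lowest in Hoxd without SHMT2 replicate 2. Without both vector replicates 2 and 3, Hoxa3, Hoxa5 and Hoxa7 turned to log2 fold changes of -0.50, -0.38 and -0.24. Without 1 library they ranged from -0.20 to 0.63, -0.093 to 0.52 and -0.31 to 0.44, negative only without vector replicate 2, and Hoxa2 from -0.70 to -0.28. Over all genes, leaving out vector replicate 1 raised the calls from 0 to 845 (431 higher, 414 lower), none a Hox gene, and leaving out vector replicates 2 and 3 raised them to 6; the cause was not tested. The downstream end of Hoxd4 turned to -1.69 points in the narrowest window tried. Without 1 library Hoxa2 upstream ranged from -2.60 to 16.6 points, Hoxd10 upstream from -0.22 to 12.8, Hoxd9 upstream from -0.92 to 11.4 and Hoxd9 downstream from -0.35 to 13.9. The H3K4me1 covered length, 61426 bases longer in SHMT2, was 38315 bases longer among peaks with −log10 q of at least 5 and 1.91 bases per 10 kb under any peak higher as a share; H3K4me3, 11368 bases longer, was 1.32 bases per 10 kb higher as a share and 7245 bases longer without SHMT2 replicate 4, 7781 without vector replicate 4 and 16612 at most. Depth is unknown for TPM and peaks, and ends with few cytosines limit the methylation values.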
